A study of Mus musculus with 6 samples.

Results

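Transcript levels of 6 genes for scaffold attachment and nuclear matrix proteins were followed in mouse C2C12 myotubes after knockdown of SENP7, a protease that removes SUMO from modified proteins. The genes were Safb, Safb2, Sltm, Hnrnpu, Matr3 and Satb1, taken by symbol from a table of 55401 genes because the SAFB family and its nuclear matrix companions appear in the study's model of the myosin promoters. All 6 were found, each in a single row, and all 6 passed the filter on low values (10 or more normalized counts in 3 or more of the libraries). C2C12 is a mouse myoblast line that fuses into myotubes in low-serum medium, here with 2% horse serum, and nothing in the labels gives it a genetic modification. Of 6 cultures, 3 received 100 pmol of GL2 siRNA, a control directed against firefly luciferase, and 3 received 100 pmol of SENP7 siRNA, all for 3 days. The siRNA sequences were not used here, and each culture counts as 1 replicate.

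The nuclear matrix is the protein and RNA framework that remains when nuclei are stripped of soluble material, and scaffold or matrix attachment regions are the AT-rich DNA stretches bound to it. SAFB, SAFB2 and SLTM, relatives within one family, combine a SAP domain, which binds such DNA, with an RNA recognition motif, and SAFB is known as a transcriptional corepressor that is itself modified by SUMO. HNRNPU, also called scaffold attachment factor A, carries a SAP domain too and ties nuclear RNA to chromatin. MATR3 (matrin 3) binds RNA through a pair of RNA recognition motifs and takes part in splicing, and SATB1 is a DNA-binding protein best known for organizing chromatin in developing T cells. The comparison of the groups asks whether the amounts of these transcripts depend on SENP7. SUMO modification of the proteins themselves was not measured.

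Senp7, the target, was at normalized counts of 556.4, 616.4 and 648.8 with control siRNA and of 275, 279.2 and 346.7 with SENP7 siRNA, so the groups did not overlap and the knockdown was partial (log2 fold change -1.02 ± 0.11 SE, limma adjusted p = 0.000428). A normalized count is the number of reads of a gene divided by 1 factor per library. Across the series 3062 of 14668 tested genes (20.9%) passed the test, limma with Benjamini-Hochberg adjustment over all tested genes at a threshold of 0.05, and in 39.6% of all tested genes the values of one group all lay above those of the other. The libraries held between 25223218 and 30865945 reads assigned to genes. Control replicate 3 stood apart from the other controls, with a first principal component of -19.1 against -36.7 and -33.3 (27.7 to 32.5 in the SENP7 siRNA libraries), and without it 4702 genes passed (32.1%). The cultures had the transcripts of myotubes, with all 10 myotube markers above the filter (among them Myog, Ckm and Acta1). Of the 10, 3 rose and 0 fell in limma, and 3 were called with edgeR, 4 with limma-voom and 6 with DESeq2. The summed count of the 10 was 695252 to 730429 in the controls and 762168 to 851666 with SENP7 siRNA. The 11 markers of cycling myoblasts had 0 calls in limma, edgeR and DESeq2 (2 at an unadjusted p under 0.05), and their summed count was highest in control replicate 3, at 12878 against 9407 to 9664 in the other controls and 7989 to 10651 with SENP7 siRNA. In a bulk sample, fewer cells of a type and less RNA per cell cannot be told apart. Of the 7 reserve cell markers 5 were tested, of which 2 rose and 2 fell, with Calcr and Chrdl2 at 0. Of the 8 connective tissue markers 5 were tested, with Lum and Thy1 below the filter and Tcf21 at 0. Of these 5, 2 rose (Col3a1 and Dcn) and 0 fell. Among all tested genes 10.2% rose and 10.7% fell. The summed count of the 8 connective tissue markers was 121158 to 153763 in the controls and 194895 to 221794 with SENP7 siRNA. Adipocyte markers were near 0, with summed counts of at most 3.21. Immune markers summed to at most 66.5, largely from Cd68 (46.3 ± 9.81 in the controls and 45.0 ± 4.10 with SENP7 siRNA), with Adgre1 at 0. Of the 7 immune markers 2 were tested, Cd68 and Itgam. The limma call was Itgam, which rose from 6.87 ± 2.11 to 14.8 ± 1.06 normalized counts (limma adjusted p = 0.043). The immune list had 1 call with edgeR and 0 with DESeq2. The part of these markers in the results was not tested.

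Among the 6 genes, Safb rose by a small step, Safb2 was higher by a similar amount but missed the threshold, and Satb1 was low and variable. Sltm, Hnrnpu and Matr3 differed between the groups by no more than the spread of their replicates. In all, 1 of the 6 genes rose, against 10.2% of all tested genes that passed upwards. With edgeR and with DESeq2 the count was 1 as well, where 20.7% and 20.5% of all tested genes passed in either direction. None of the 6 fell with these tools, nor at an unadjusted p under 0.05 in limma. A share of 1 in 6 is near this background. The median log2 fold change of the 6 was 0.11, and that of all tested genes was -0.0025.

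**Figure D1:**
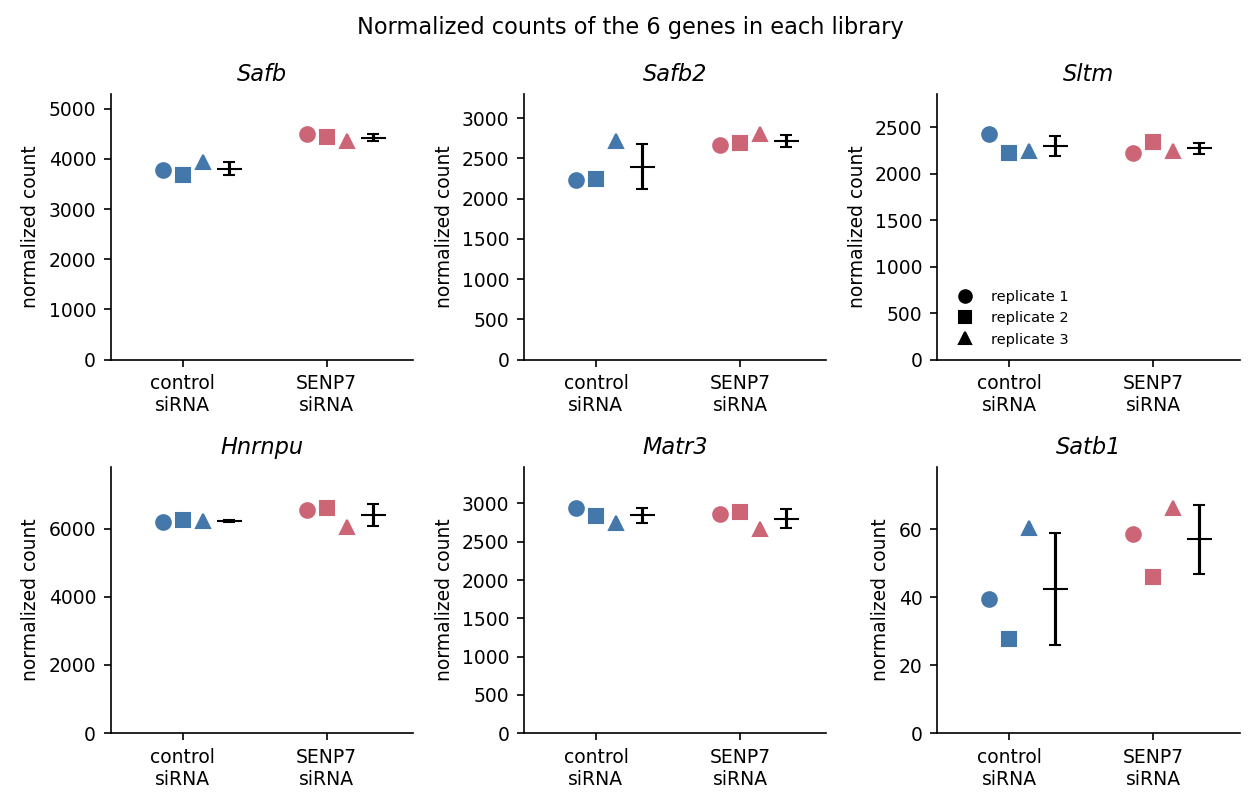
Normalized counts of the 6 genes in each library (vertical axes from 0, in normalized counts), with control siRNA in blue and SENP7 siRNA in red, symbols for the replicate numbers, and black bars for the mean ± SD of 3 libraries. Of the 6 genes, Safb is the one whose groups separate, from at most 3946 to at least 4346; in Safb2 and Satb1 control replicate 3 lies among the SENP7 siRNA values.

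Safb and Safb2 lie head to head on chromosome 17 with their annotated starts close together, so they are described first and together. Safb (ENSMUSG00000071054.12, GRCm38, chromosome 17, 56584825 to 56606294) is on the plus strand, and Safb2 (ENSMUSG00000042625.16, 56560965 to 56584585) is on the minus strand. The DNA between their starts is 239 bases long in GENCODE, whereas the RefSeq starts are 397 bases apart. It is shown whole because it is upstream of both genes, and its promoter activity was not tested. It is intergenic in GENCODE and written on the plus strand, so that Safb2 reads away to the left and Safb to the right. The bases are those of the RefSeq promoter windows of both genes (GRCm38.p6), which overlap by 104 bases and agree there. Capitals mark the E-boxes.
chr17:56584586-56584824: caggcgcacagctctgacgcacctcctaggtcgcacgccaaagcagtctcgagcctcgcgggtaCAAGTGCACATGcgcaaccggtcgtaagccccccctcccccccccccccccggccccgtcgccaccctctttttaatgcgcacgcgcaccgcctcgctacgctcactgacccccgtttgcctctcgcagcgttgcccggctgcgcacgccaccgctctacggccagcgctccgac

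This stretch was 69.9% G and C and held 29 CpG pairs. The E-box, the recognition sequence of MYOD1 and other basic helix-loop-helix factors, was searched as CANNTG, which reads alike on both strands. It occurred 2 times in direct succession, as CAAGTG and CACATG. In all 32851 RefSeq promoter windows of 300 bases (250 before and 50 after a start), 72.3% held an E-box. The RefSeq window of Safb held 0 E-boxes and that of Safb2 held both. The GC box GGGCGG (35.7% of windows), the CCAAT box (37.4%), the TATA box TATAAA (13.6%), the ETS motif CCGGAAG (8.86%) and the cAMP response element TGACGTCA (1.79%), each searched on both strands, were not found in these letters. The windows of Safb and Safb2 held 47 and 36 CpG pairs, against a median of 7 over all windows. Sltm (25) and Hnrnpu (41) were CpG-rich as well, whereas the 5 windows of Satb1 held 3 to 45. A match is a string of letters and no evidence of binding.

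The coding sequences of the pair are identical in places. The longest run that was identical in a Safb and a Safb2 transcript was 322 bases long and lay inside the coding sequence of both (bases 737 to 1058 of the Safb transcript and 757 to 1078 of the Safb2 transcript, GENCODE M21). Its first 150 bases are printed because a read of 76 bases that falls inside it cannot be assigned to one of the genes by its own sequence.
Safb and Safb2 shared run: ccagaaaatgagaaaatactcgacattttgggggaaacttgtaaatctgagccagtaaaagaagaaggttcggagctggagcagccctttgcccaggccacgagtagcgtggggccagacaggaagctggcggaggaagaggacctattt

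Of 7822 distinct stretches of 76 bases in the Safb transcripts, 515 (6.58%) also occurred in Safb2, which is 5.84% of the Safb2 stretches. How such reads were counted was not stated in the material at hand, and a mate outside the run can still place a read pair. Sltm, their relative, shared 0 stretches with any other annotated gene.

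Safb had normalized counts of 3787, 3679 and 3946 under control siRNA, against 4493, 4435 and 4346 under SENP7 siRNA. Every SENP7 siRNA library was above every control, an ordering that 19.3% of tested genes showed in this direction. The mean rose 1.16-fold, from 3804 ± 134 to 4425 ± 74.0 (SD, n = 3 each), a log2 fold change of 0.22 ± 0.06 (SE, limma adjusted p = 0.0233, 95% interval 0.09 to 0.34). By size of p it was gene 2124 of 14668. In the authors' deposited table the log2 fold change of Safb was 0.21 with an adjusted p of 0.0149. The direction held in every setting run, but the call was lost without control replicate 2 (adjusted p = 0.101), SENP7 replicate 1 (0.109) or SENP7 replicate 2 (0.0993). Across the settings it ran from 0.0062 to 0.109.

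Safb2, the paralog of Safb with the same domains, was at 2233, 2241 and 2717 under control siRNA, against 2670, 2687 and 2803 under SENP7 siRNA. Control replicates 1 and 2 were below all SENP7 siRNA libraries, and control replicate 3 was above 2 of them. The means were 2397 ± 277 and 2720 ± 72.4, and the log2 fold change of 0.19 ± 0.08 missed the threshold (limma adjusted p = 0.137, 95% interval 0.0045 to 0.37). It passed in 2 other settings, once when replicate numbers entered as a block (adjusted p = 0.0416) and without control replicate 3, where the log2 fold change was 0.28 (adjusted p = 0.00323). The settings together spanned adjusted p values from 0.00323 to 0.371. With the block, 2 of the 6 genes rose, in a fit that called 28.5% of all tested genes (14% higher). In the authors' deposited table its adjusted p was 0.334. Control replicate 3 was also the library with the highest summed count of cycling myoblast markers, given above, and the part of that difference in the Safb2 result was not tested.

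The balance between the paralogs did not differ beyond the spread of the replicates. The within-library ratio of Safb2 to Safb normalized counts was 0.590, 0.609 and 0.688 in the controls and 0.594, 0.606 and 0.645 with SENP7 siRNA. The difference of the log2 ratios was -0.03 (two-sided exact permutation test, p = 0.8, where 0.1 is the smallest p that 3 against 3 can give), and it turned to 0.04 without control replicate 3. Summed over both genes, the counts were 6019, 5920 and 6663 in the controls and 7163, 7123 and 7149 with SENP7 siRNA, 1.15-fold higher in the mean and without overlap. The SD of this sum was 20.4 with SENP7 siRNA, below that of Safb (74.0) or Safb2 (72.4) alone. In the controls it was 403, with control replicate 3 above the others. The cause of this difference in spread was not tested.

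Among the genes around the pair 1 rose and 0 fell, a share near that of all tested genes (10.2% rose). Within 100 kb, a distance chosen after the values were seen, 6 other genes were tested, with log2 fold changes from -0.18 to 0.25. The gene that rose was 2410015M20Rik, which encodes a small subunit of the mitochondrial contact site complex and lies just beyond Safb (chromosome 17, 56607452 to 56609771). Its counts were 1446, 1361 and 1217 in the controls and 1584, 1640 and 1537 with SENP7 siRNA (log2 fold change 0.25 ± 0.07, limma adjusted p = 0.0438). This call was lost without control replicate 2 (adjusted p = 0.114) or any SENP7 siRNA library (0.129, 0.159 and 0.0756 without replicates 1, 2 and 3), with 0.0123 to 0.159 over all settings. Rpl36, Lonp1, Ranbp3, Ptprs and Gm20219 did not pass.

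**Figure D2:**
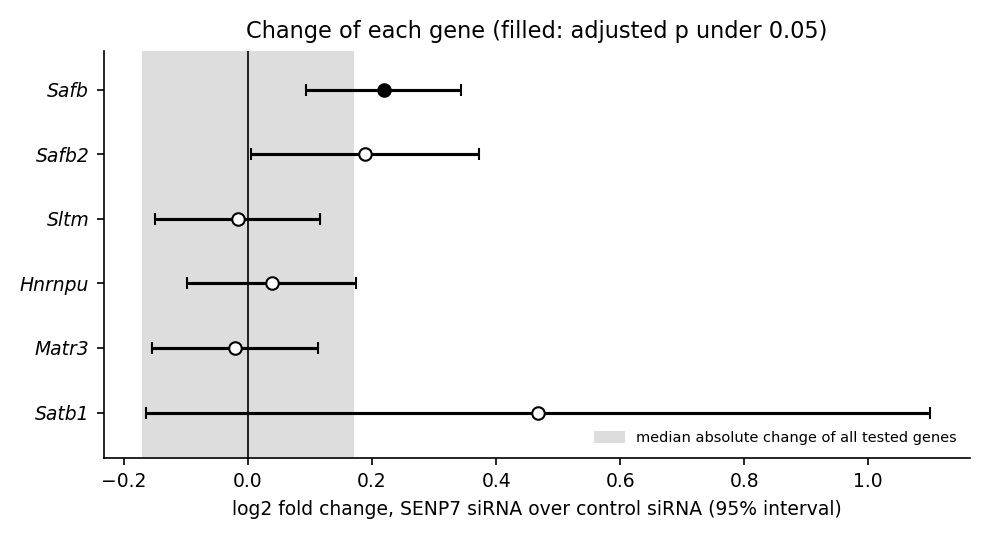
Log2 fold change after SENP7 knockdown for each gene (horizontal axis) with its 95% interval from limma; a filled point passed the test and the grey band spans the median absolute change of all tested genes (0.17 either way). Safb at 0.22 is the filled point, and the interval of Satb1 reaches from -0.16 to 1.10.

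Sltm, Hnrnpu and Matr3 were well covered, and their intervals were narrower than that of Satb1. Sltm (chromosome 9, 70542754 to 70592234, plus strand), the family member known as a modulator that can repress transcription broadly, was at 2428, 2226 and 2249 in the controls and at 2227, 2345 and 2248 with SENP7 siRNA. The values of the groups were interleaved. The log2 fold change was -0.02 ± 0.06 (limma adjusted p = 0.87), and its 95% interval runs from 0.902 to 1.08 as a fold.

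Hnrnpu (chromosome 1, 178321108 to 178337797, minus strand) was at 6193, 6264 and 6236 in the controls and at 6553, 6617 and 6045 with SENP7 siRNA. The controls lay within a narrow band (6231 ± 35.8), and the SENP7 siRNA libraries fell on both sides of it (6405 ± 314). The log2 fold change was 0.04 ± 0.06 (limma adjusted p = 0.693), and the 95% interval runs from 0.935 to 1.13 as a fold. Of its exon bases, 6.93% overlap exons of Cox20 on the opposite strand. Cox20 had a mean of 333 reads per library and, although the library kit keeps the strand, the strand setting of the counting was not stated.

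Matr3 (chromosome 18, 35562138 to 35593835, plus strand), whose variants are known from inherited disease of muscle and motor neurons, was at 2946, 2843 and 2743 in the controls and at 2859, 2891 and 2662 with SENP7 siRNA. In both groups replicate 3 was the lowest library. The log2 fold change was -0.02 ± 0.06 (limma adjusted p = 0.836), with a 95% interval from 0.898 to 1.08 as a fold. Of its exon bases, 17.3% also belong to the gene ENSMUSG00000117694.1 on the same strand, which held a mean of 4.33 reads, and 3.05% overlap an antisense gene. How reads on such bases were counted was not stated. Missing the threshold does not show that these 3 genes stayed the same. The signs of Sltm and Matr3 turned to positive under quantile normalization and under scaling by total reads.

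Satb1 (chromosome 17, 51736187 to 51833290, minus strand) was scarce, with 25 to 70 reads per library. Its normalized counts were 39.3, 27.8 and 60.3 in the controls and 58.6, 46.0 and 66.3 with SENP7 siRNA. The groups overlapped, since control replicate 3 was above 2 of the SENP7 siRNA libraries. The log2 fold change of 0.47 ± 0.28 missed the threshold (limma adjusted p = 0.274, 95% interval -0.16 to 1.10). Without control replicate 3 it was 0.75 and passed (adjusted p = 0.0296), and without control replicate 2 it was 0.21 (adjusted p = 0.654). These are the lowest and the highest adjusted p over all settings.

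**Figure D3:**
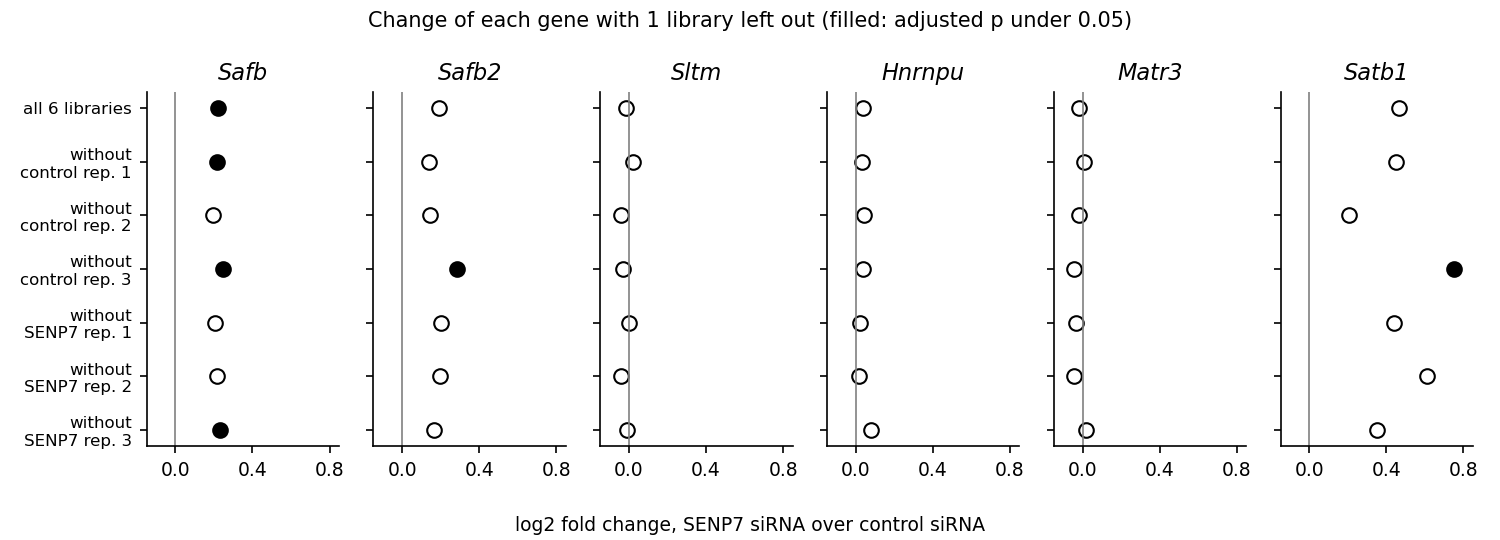
Log2 fold change of each gene (horizontal axes) with all 6 libraries and with each library left out in turn (rows); filled points passed the test at an adjusted p under 0.05. Without control replicate 3, Safb, Safb2 and Satb1 passed. No gene of the 6 did when control replicate 2 or either of SENP7 replicates 1 and 2 was left out. Among all tested genes 4702 passed in the first of these settings and 1633, 1660 and 1619 in the others, in that order.

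The number of the 6 genes that rose therefore depended on single libraries. It was 3 without control replicate 3, where 15.6% of all tested genes rose, and 0 when control replicate 2 or either of SENP7 replicates 1 and 2 was left out. No gene of the 6 fell in any setting run.

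Levels between genes were compared as RPKM, the read count divided by the length of a gene and by the library total. In the control libraries Hnrnpu (19.4 ± 0.42, SD, n = 3) and Safb (18.9 ± 1.06) were the most abundant and did not differ beyond their spread. Safb2 (10.6 ± 1.46) and Matr3 (10.1 ± 0.24) followed, again within their spread, and then Sltm (7.38 ± 0.34). Satb1 was far below all of them at 0.0812 ± 0.033. With SENP7 siRNA the RPKM values of Safb (22.2 to 22.6) were above those of Hnrnpu (19.3 to 21.0), and those of Safb2 (11.9 to 12.7) were above those of Matr3 (9.71 to 10.5). The order depends on the length used. The exon union of Safb is 7268 bases and its longest coding transcript 3122, and per length of the longest coding transcript Safb was first in the controls (44.1 ± 2.46), Hnrnpu second (29.5 ± 0.63), followed by Safb2 (26.5 ± 3.64), Sltm (22.2 ± 1.03) and Matr3 (16.4 ± 0.39). Satb1 was last by both.

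**Figure D4:**
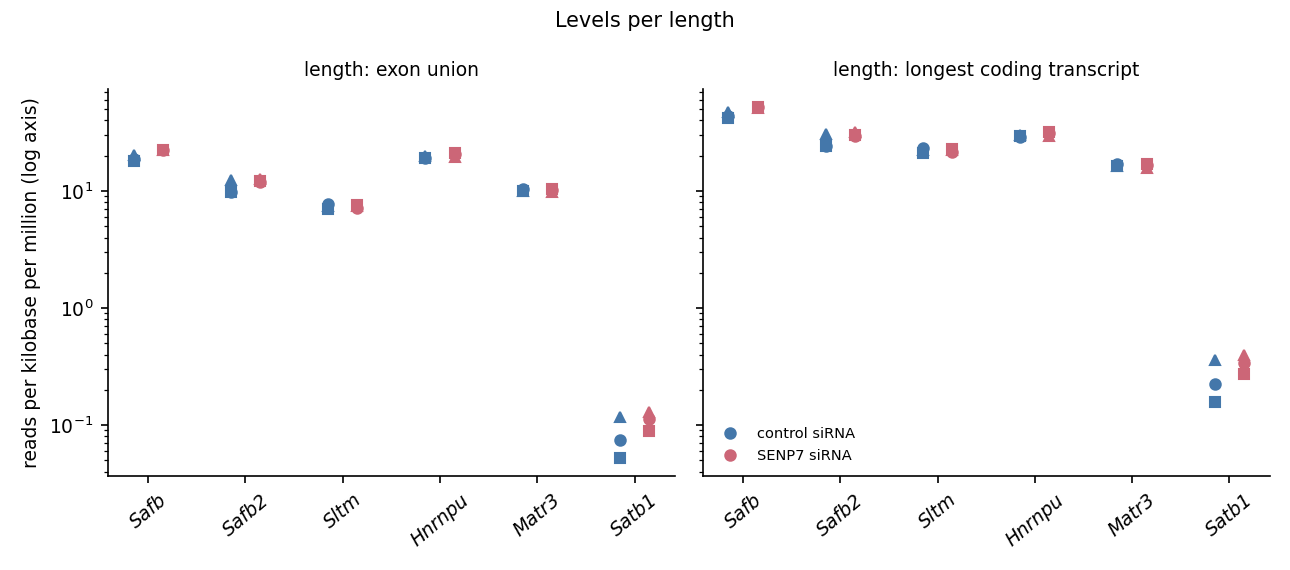
RPKM in each library on a log axis, with length taken as the union of exons (left) or the longest coding transcript (right); control siRNA in blue, SENP7 siRNA in red, symbols for replicates as in the plot of normalized counts. Satb1 lies lowest in both panels, at a control mean of 0.0812 on the left against 7.38 for Sltm, the next gene up.

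Genes whose profile over the 6 libraries was most like each of the 6 were listed by Pearson correlation of log2(normalized count + 1), among 11204 other named genes with a mean of at least 50 (11205 for Satb1). These correlations describe 6 libraries that share the group difference and depth, and many genes reach a high value by that alone. For Safb they were Immt, which organizes mitochondrial cristae, Acaa2, a fatty acid oxidation enzyme, and the sodium pump subunit Atp1b1 (r = 0.996, 0.996 and 0.995), out of 314 genes above 0.95. For Safb2 they were the DNA damage binding gene Ddb2, the calcium channel subunit Cacna2d2 and the sialic acid transporter Slc17a5 (r = 0.997, 0.996 and 0.996), with 201 genes above 0.95. These genes too were at their highest control value in control replicate 3, for example Cacna2d2 at 120 against 46.4 and 49.0. Far fewer genes followed Sltm (9 above 0.95, led by the calmodulin gene Calm2, Exosc1 and Rpf1) and Hnrnpu (19, led by Sufu, Lipt1 and Ssr1). Matr3 had 64, led by Mrps7, Med8 and Eif2s2, and Satb1 23, led by Ublcp1, Apbb1ip and Zfp869. With any 1 library left out, the lowest r of these 18 genes was 0.938 (Exosc1). They were picked for a high r over the same libraries, so this value is no independent check.

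The other genes of these processes were described in 5 lists, whose counts were not tested against each other. Of 8 paralogs and relatives (such as Hnrnpul1, Hnrnpul2, Rbm20 and Zfp638) none passed in limma, edgeR or DESeq2, and 1 had an unadjusted p under 0.05, against 20.9% of all genes that passed limma. The median log2 fold change of these 8 was 0.04. The 24 nuclear matrix and RNA scaffold proteins included Nono, Sfpq and the HNRNP genes. Under the block 2 of them changed, where 28.5% of all tested genes passed. In the main fit 1 rose and 0 fell, with a median of 0.04. The gene that rose was Akap8l, a nuclear matrix anchoring protein. Its counts were 1575, 1566 and 1668 in the controls and 1908, 1912 and 2011 with SENP7 siRNA, without overlap (log2 fold change 0.28 ± 0.06, limma adjusted p = 0.00946).

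Of 13 genes of the nuclear lamina and inner nuclear membrane, 4 rose, 1 fell and 8 did not pass, where 10.2% of all tested genes rose and 10.7% fell. Their median log2 fold change was 0.04. Lmnb2, a B-type lamin, rose from 2423 ± 83.4 to 3714 ± 205, with no overlap (log2 fold change 0.62, limma adjusted p = 0.000314). Tmpo, the lamina-associated polypeptide gene, rose by 0.31 on the log2 scale (limma adjusted p = 0.0135). The SUN genes, whose proteins bridge the lamina to the cytoskeleton, went opposite ways, with Sun1 from 4192 ± 108 to 4898 ± 81.6 and Sun2 from 5650 ± 103 to 4707 ± 95.8. Syne1, which binds SUN proteins and is named because it is the last of the 5 calls, rose by 0.31 (limma adjusted p = 0.0487, from 0.00436 to 0.151 across settings). The calls of Tmpo and Sun1 were lost without control replicate 2 or SENP7 replicates 1 or 2, and that of Sun2 without SENP7 replicate 2. Then 2 genes of the list passed without control replicate 2 or SENP7 replicate 1, and 1 did without SENP7 replicate 2. Over all tested genes 1633, 1660 and 1619 passed in these settings, against 3062 with all 6 libraries.

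Of 17 matrix attachment and architectural DNA binders, 0 rose and 4 fell, with a median log2 fold change of -0.05. This count is near the 20.9% of all tested genes that passed in either direction (10.7% fell). Hmga2, an AT-hook protein of embryonic and proliferating cells, fell from 604.7 ± 88.6 to 282.6 ± 44.8 (log2 fold change -1.10, limma adjusted p = 0.00106). Its relative Hmga1 fell by 0.44, the Ku80 gene Xrcc5 by 0.31 and the chromatin remodeller Smarca4 by 0.19 on the log2 scale. The calls of Hmga1, Xrcc5 and Smarca4 were each lost when control replicate 2 or either of SENP7 replicates 1 and 2 was left out. This left Hmga2 as the 1 call among these 4. Over all tested genes 1633, 1660 and 1619 passed in these settings, against 3062 with all 6 libraries. The log2 fold changes there were -0.27 to -0.30 for Xrcc5, -0.41 to -0.50 for Hmga1 and -0.18 to -0.21 for Smarca4. The calls of Hmga1 and Smarca4 were lost without control replicate 1 or SENP7 replicate 3 too, where 2 genes of the list passed. Over all tested genes 2406 and 2200 passed there. Ctcf, the insulator protein, was at 1746 ± 66.1 and 1964 ± 83.8 and missed the threshold (adjusted p = 0.0771).

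Among 5 nuclear retained noncoding RNAs, 1 of 4 tested fell, against 10.7% of all tested genes, and Meg3 was listed at 0 in all libraries. Miat fell from 50.3 ± 15.9 to 25.6 ± 8.24 (limma adjusted p = 0.0469), a call that was lost on leaving out control replicate 2 (adjusted p = 0.12), control replicate 3 (0.0727), SENP7 replicate 1 (0.146) or SENP7 replicate 2 (0.152). It was lost with edgeR too (0.051), and its settings spanned 0.00672 to 0.152. Malat1, which marks nuclear speckles, was at 21369 ± 1289 and 18699 ± 351, and Neat1, the scaffold of paraspeckles, at 18677 ± 3104 and 16103 ± 148. In both, every control was above every SENP7 siRNA library, as in 20.4% of all tested genes, and neither passed (limma adjusted p = 0.0925 and 0.226). Kcnq1ot1 went the other way, from 151.6 ± 24.5 to 193.4 ± 10.8, and did not pass either (limma adjusted p = 0.0884). Its groups did not overlap, as in 19.3% of all tested genes in this direction.

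**Figure D5:**
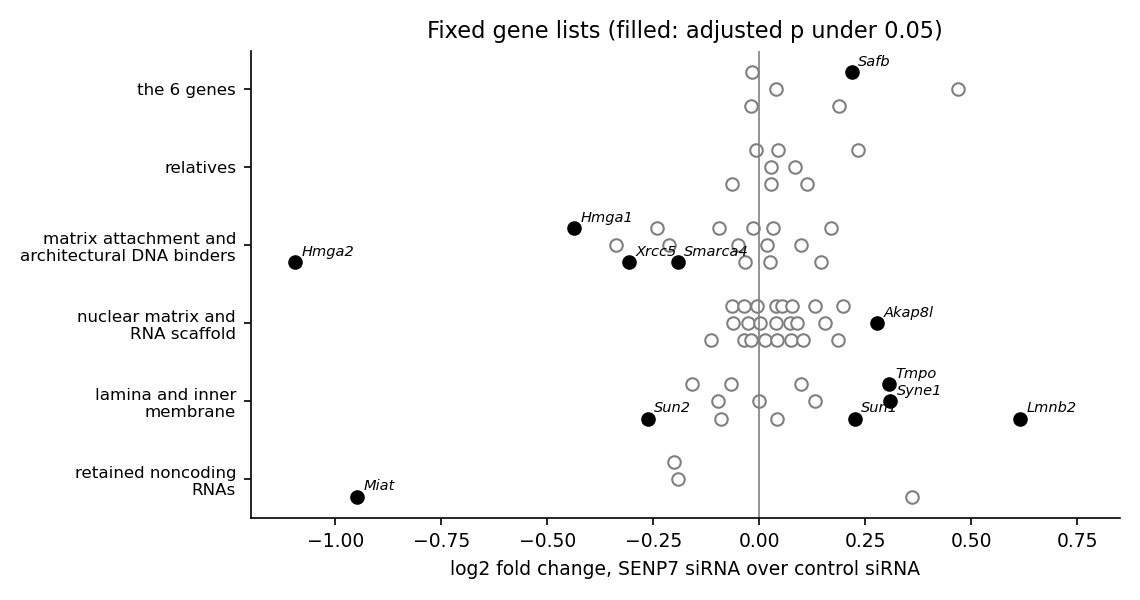
Log2 fold change after SENP7 knockdown (horizontal axis) for every tested gene of the 6 and of the 5 related lists (rows); filled and named points passed the test, and vertical position within a row only separates the points. Lmnb2 lies farthest to the right among the filled points (0.62), and Hmga2 farthest to the left (-1.10).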

How the data were processed

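RNA-seq was deposited for 3 control siRNA and 3 SENP7 siRNA libraries of C2C12 myotubes, described as biological replicates. The submitters' processing notes name STAR 2.6.1d, featureCounts 1.6.4, Trim Galore 0.6.4, bcl2fastq and DESeq2, with GRCm38.p6. The authors' table gives a normalized signal per library (reads of a gene over 1 factor per library, from the values), log2 fold changes with standard errors, a Wald score, and p-values with adjusted values, per the file headers. All positive values (100%) were multiples of a step per library to within 0.1 read, so reads could be recovered.

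limma 3.58.1 (R 4.3.3, trend, robust) was fitted to log2(normalized count + 1) of genes with at least 10 in at least 3 libraries. Fold changes are on that scale, and p-values were adjusted by Benjamini-Hochberg. Alternatives were DESeq2 1.42.0, edgeR 4.0.16 (quasi-likelihood, TMM) and limma-voom on recovered reads, a replicate block, other scalings, filters and pseudocounts, and each library left out. Same-numbered libraries deviated together (r = 0.239, 0.115 and 0.385 over 11205 genes), and the numbers paired the samples in the replicate block only. The main fit was unpaired. The replicate numbers come from the sample titles, which state no pairing, and the pairing is uncertain. Control replicate 1 correlated more with SENP7 replicate 2 (0.293), and control replicate 2 more with SENP7 replicate 1 (0.201). The limma p-values set each group difference against the spread between these cultures, with variances drawn towards a trend over all tested genes.

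Members and lists were chosen with earlier results of these data known. Named genes were the 6, Senp7, up to 4 called genes per list with the smallest adjusted p, and 3 genes most alike in profile. Others were named after their values were seen, and a result on a gene in the list of relatives is not reported here. The fit was tested on simulated data. Promoter sequences are from RefSeq (GRCm38.p6), which held windows for 5 of the 6 genes, and transcripts and exon overlaps from GENCODE M21, whose coordinates of the 6 genes equal the deposited ones.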

Additional observations from a re-analysis of the deposited data

How the results depend on the processing

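Over 16 alternatives, Safb kept its direction in all and its call in 13, and Hnrnpu and Senp7 kept direction and side of the threshold in all. With the replicate block, Safb2 passed (log2 fold change 0.19, adjusted p = 0.0416), 2 of the 6 genes rose, and 2 nuclear matrix and scaffold genes changed. Of the genes whose adjusted p was followed individually through the settings, no other than Safb2 changed its call under the block. Genes not followed in this way did change call. With the block 6 DNA binders passed, against 4 in the main fit, and 4175 of all tested genes passed, against 3062. Scaling by total reads turned Sltm to 0.0072 and Matr3 to 0.0031, and quantile normalization turned them to 0.011 and 0.0022, all far from the threshold. No scaling moved the median of all genes by over 0.1. The scaffold list had 2 changed genes with DESeq2, edgeR, limma-voom, quantile normalization and scaling by total reads (1 in the report). The DNA binder list had 2 under scaling by total reads. The noncoding RNA list had 2 with DESeq2 and 0 with edgeR, limma-voom, scaling by total reads and a minimum mean of 50. Satb1 and Miat have no value at that minimum.

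With each library left out in turn, 1619 to 4702 genes changed, 0 to 3 of the 6 rose, and the log2 fold changes ranged from 0.19 to 0.25 (Safb), 0.14 to 0.28 (Safb2), -0.040 to 0.023 (Sltm), -0.047 to 0.016 (Matr3) and 0.21 to 0.75 (Satb1). The ratio of Safb2 to Safb ranged from -0.075 to 0.037 on the log2 scale. Beside the 1619 to 4702 of all 14668 tested genes, changed genes were 1 to 6 in the DNA binder list. They were 1 to 6 in the lamina list, 1 to 3 in the scaffold list and 0 to 1 in the noncoding RNA list. The cause of these shifts was not tested. The reads of Satb1 limit its precision.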
